A study of Mus musculus with 55 samples.

Results

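The clustered protocadherins are cadherin-like adhesion molecules of neurons that are encoded in 3 neighbouring gene clusters, alpha, beta and gamma. Their genes were taken as every protein-coding gene of the deposited count tables whose mouse symbol begins with Pcdha, Pcdhb or Pcdhg, which gave 57 of the 45318 genes listed, with 14 in the alpha, 22 in the beta and 21 in the gamma cluster. The samples were ventral dentate gyrus punches of male C57BL/6J mice, with 1 mouse to a library and 55 RNA-seq libraries of 54 mice. Mice entered standard housing (SH) or an enriched environment (EE) at 21 days of age and stayed there for 8 weeks. Control mice met no stressor, the others underwent 10 days of chronic social defeat stress (CSDS), and defeated mice were classified by their social interaction ratio as resilient (RES) or susceptible (SUS). Tissue of the defeated mice was taken at 90 days of age, and the age of the control mice is not given in the sources used here. The 6 groups were SH control (10 mice), SH RES (7), SH SUS (10), EE control (9), EE RES (9) and EE SUS (9). All groups share the strain, the sex and the brain region, and RES and SUS are classes assigned by behavior after defeat rather than treatments.

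In neurons, a choice among the promoters of the variable first exons gives each cell its own small set of alpha, beta and gamma isoforms, and matching isoforms on opposed membranes bind each other, which is the basis of self-recognition of dendrites and axons. Promoter choice is known to depend on CTCF, cohesin and DNA methylation. The 5 C-type genes at the ends of the alpha and gamma clusters (Pcdhac1, Pcdhac2, Pcdhgc3, Pcdhgc4 and Pcdhgc5) are regulated differently and are used more broadly by neurons than the other members, and Pcdhgc4 is needed for the survival of interneurons.

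The members lie in order on the plus strand of chromosome 18 of GRCm38, at chr18:36930184-37187661 for alpha, chr18:37264938-37524479 for beta and chr18:37661793-37841873 for gamma. Every alpha gene has a variable first exon of its own and shares its remaining, constant exons with the other 13 alpha genes, and the gamma genes are built in the same way. A read pair in the constant exons belongs to several genes and was counted for none, so the alpha and gamma counts come from the exons that a gene shares with no other. This unshared part was 46.4% of the exon length of an alpha gene and 55.4% of that of a gamma gene at the median. The beta genes have no constant exons, and 20 of the 22 shared no exon sequence with another gene, the exceptions being the overlapping neighbours Pcdhb21 and Pcdhb22. Pcdha4 kept only 8.56% of its exon length, because its first exon is also annotated in the read-through gene Gm42416, and its counts rest on 494 bases.

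Repeats at other places were counted apart from such overlaps, leaving out genes annotated over the same first exon. Of the read-length windows of a first exon, at most 7.71% (Pcdhgb2) occurred in a transcript of a gene elsewhere, and none did for the C-type genes. The highest share in the alpha cluster was 7.53% (Pcdha11). Read pairs that fall in such stretches cannot be assigned to 1 gene. Genes annotated on the opposite strand lie over the first exons of 13 members, so strand mattered. Reverse-strand counts, which correspond to the sense strand of the stranded libraries, were used throughout. Without regard to strand Pcdhga10 was left with 0 read pairs over the 54 mice, against 9820 on the sense strand. Forward-strand read pairs made up 50.4% of the pairs of Pcdha4, 21.9% of those of Pcdha1 and 20.4% of those of Pcdha3, whereas the median over the 57 members was 0.178%, beside 0.300% over all 18283 genes tested.

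The mice had between 16760009 and 45872357 read pairs assigned to genes, with a median of 21552884, and the highest value belongs to EE control mouse 9, which was sequenced in 2 runs that were summed. A member had 175 read pairs per mouse at the median, from 4.20 for Pcdha4 to 1162 for Pcdhgc5. Levels are given as CPM, the count of a gene scaled to library size with TMM factors. Genes of low count were not tested, and 55 of the 57 members passed this filter, all but Pcdha4 and Pcdhb1. In whole tissue, fewer cells of a type and less RNA per cell cannot be told apart.

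Markers of dentate granule cells were present, since all 8 listed genes were tested and Prox1, the transcription factor that sets granule cell identity, stood at 141 ± 25.7 CPM (SD, n = 54). Some punches had high levels of markers of neighbouring tissue. The 8 choroid plexus markers summed to more than 100 CPM in 6 mice, with Ttr as the most abundant, and the 8 thalamus markers to more than 400 CPM in 7 mice, with Rora as the most abundant. These 12 mice (1 mouse was high for both) comprised 2 SH control, 2 SH SUS, 1 EE control, 2 EE RES and 5 EE SUS mice. The counts of members at unadjusted p below 0.05 are given with and without them.

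Each of the 57 members had read pairs, and their levels per length of unshared exon ran from 0.0855 to 11.5 CPM per kb. Pcdhgc5 was the most abundant, at 11.5 ± 1.304 CPM per kb (SD, n = 54 here and in the next sentences), followed by Pcdhac2 at 11.4 ± 0.991 and Pcdhgc3 at 10.03 ± 1.201 CPM per kb. The order of these 3 C-type genes lay within their spread over mice, and all 3 exceeded Pcdhga11, the next gene, which stood at 7.44 ± 0.804 CPM per kb. C-type genes thus led both clusters that hold them, but not all of them were high. Pcdhgc4 stood at 2.79 ± 0.261 and Pcdhac1 at 2.41 ± 0.351 CPM per kb, close to the median member at 2.51 CPM per kb.

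The levels of all members, C-type genes included, are given by cluster next. Over the 14 alpha genes the level per length ran from 0.352 to 11.4 CPM per kb with a median of 1.76, over the 22 beta genes from 0.0855 to 6.15 with a median of 2.11, and over the 21 gamma genes from 1.84 to 11.5 with a median of 3.22. Pcdhgb5 was the lowest gamma member, at 1.84 ± 0.288 CPM per kb. In the beta cluster Pcdhb9 was the highest at 6.15 ± 0.555 CPM per kb, and Pcdhb17 followed at 5.10 ± 0.478. Pcdhb1, the first gene of that cluster, was the lowest of all members at 0.0855 ± 0.0472 CPM per kb, with 1 to 11 read pairs per mouse. Pcdha1, the lowest alpha gene, stood at 0.352 ± 0.109 CPM per kb, and 21.9% of the pairs over its exons were on the opposite strand, as given above.

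**Figure D1:**
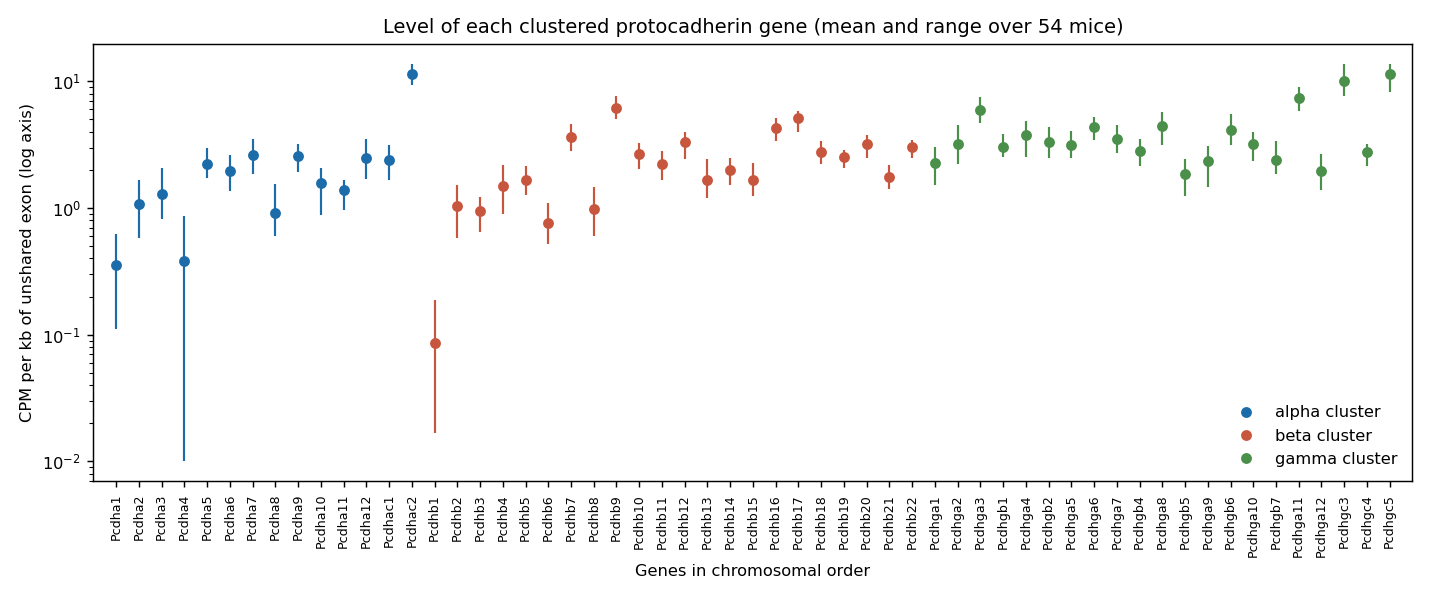
Level of each of the 57 clustered protocadherin genes in CPM per kb of unshared exon, on a log axis, in chromosomal order from the alpha over the beta to the gamma cluster. Points are means and lines run from the lowest to the highest of the 54 mice (the line of Pcdha4, whose lowest value is 0, is drawn down to 0.01). Pcdhac2, Pcdhgc3 and Pcdhgc5 stand above all other members, and Pcdhb1 stands lowest.

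This order of levels was nearly the same in every group. Across the 57 genes, which are not independent replicates, Spearman's rho between the means of any 2 of the 6 groups ran from 0.988 to 0.996, and between any 2 single mice from 0.908 to 0.983 with a median of 0.958. Exon lengths and sequence shared among members are common to all mice, and their part in this rank was not tested.

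Between mice the members had a median variation near that of all genes, but a smaller share of them lay above the trend for their abundance. The biological coefficient of variation estimated by edgeR had a median of 0.0921 over the 55 members tested and of 0.0870 over all genes tested, and it lay above the trend for genes of like abundance in 9 members (16.4%), against 27.0% of all genes. The beta gene Pcdhb22 was the steadiest, with 0.0620, and the alpha gene Pcdha1 the most variable, with 0.209. By cluster the median was 0.124 for alpha, 0.0824 for beta and 0.0968 for gamma members, and the alpha members also had the fewest read pairs.

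The clusters took unequal shares of the members' counts. The alpha and gamma counts leave out the constant exons, and the alpha, beta and gamma clusters hold 14, 22 and 21 genes. The shares are therefore not amounts of RNA. Of the summed CPM of the members, the gamma cluster took 46.3% ± 1.79 (SD, n = 54), the beta cluster 38.7% ± 1.74 and the alpha cluster 14.99% ± 0.684. Per length of unshared exon the gamma share was 50.5%, the beta share 30.6% and the alpha share 18.9%, so the order of the clusters did not depend on length. The 5 C-type genes together made up 23.3% ± 1.34 of the summed CPM.

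The summed levels of the alpha and gamma clusters were close in the 6 groups. The alpha cluster had group means from 86.4 ± 3.901 CPM (SD, n = 9) in EE control to 89.7 ± 4.47 CPM (n = 10) in SH SUS mice. The gamma cluster ranged from 263 ± 22.7 CPM (n = 9) in EE RES to 279 ± 19.0 CPM (n = 9) in EE control mice. These means lie within 1 SD of each other, and no p is given for a sum over chosen genes.

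The beta cluster showed the widest gap, between the RES mice of the 2 housings. Its summed level was lowest at 230, with a median of 242 and a highest value of 249 CPM in the 7 SH RES mice, and lowest at 204, with a median of 221 and a highest value of 228 CPM in the 9 EE RES mice. Every EE RES mouse therefore lay below every SH RES mouse, with means of 218 ± 8.88 and 240 ± 7.69 CPM, a difference of -9.21%. This pair was singled out as the widest gap after the data had been seen, and no p is given for it. No single member separated these groups completely, and 31 of the 18283 genes tested did (0.17%). That share is for single genes, and none was obtained for sums over many genes. The SH control mice averaged 228 ± 11.5 CPM and the EE control mice 231 ± 13.4 CPM, and the 2 RES groups lay on either side of them. In the same comparison all 8 dentate granule genes had lower estimates in EE RES mice, with a summed level of 1035 against 1239 CPM, and all 8 oligodendrocyte genes higher ones, with 1567 against 1205 CPM. The part of these shifts in the beta sum was not tested.

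**Figure D2:**
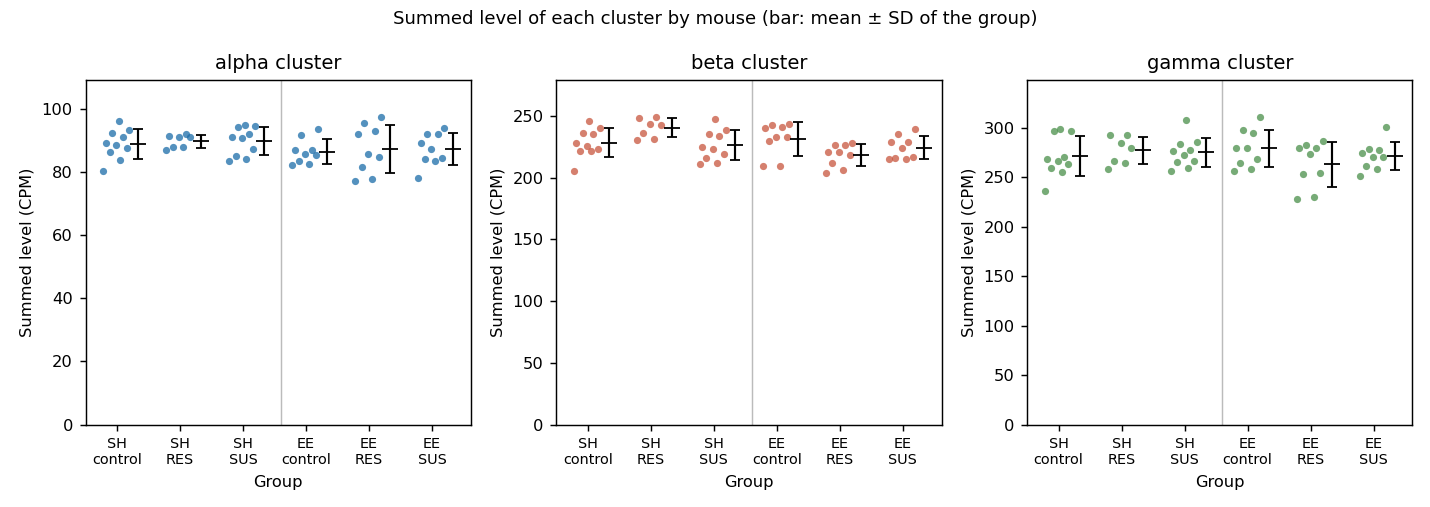
Summed level in CPM of the alpha, beta and gamma clusters in each of the 54 mice by group, with the mean and SD of the group as a bar beside the points. Groups overlap in the alpha and gamma clusters, whereas in the beta cluster all EE RES mice lie below all SH RES mice.

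Housing was compared over all mice, with 27 EE against 27 SH mice. Mice shared cages, in larger groups in EE than in SH, and the cage of a mouse is not given in the sources used here. The test counts each mouse as a unit, so its p does not allow for shared cages. Effects of enrichment, cage and group size cannot be told apart. The clearest difference among the members was that of Pcdhb7, a single-exon gene of the beta cluster (ENSMUSG00000045062, chr18:37341702-37345202), which fell in EE mice. The question is whether rearing in EE shifts the adhesion repertoire, irrespective of defeat. In SH mice the Pcdhb7 level ran from 11.7 over a median of 13.1 to 15.9 CPM in controls, from 13.1 over 14.6 to 16.1 CPM in RES mice and from 10.8 over 13.4 to 14.5 CPM in SUS mice. In EE mice it ran from 9.99 over 13.1 to 14.2 CPM in controls, from 9.88 over 11.3 to 13.2 CPM in RES mice and from 10.2 over 11.98 to 14.3 CPM in SUS mice. The housings overlapped, but 23 of 27 EE mice were below the SH median of 13.6 CPM, 7 EE mice were below every SH mouse and 8 SH mice above every EE mouse.

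The mean Pcdhb7 level was 12.004 ± 1.38 CPM in EE and 13.6 ± 1.39 CPM in SH mice (SD, n = 27 each). On the log2 scale the difference was -0.18 ± 0.04 (SE), a fold of 0.880, with an adjusted p of 0.00786 by edgeR's quasi-likelihood test after Benjamini-Hochberg adjustment over all genes. Pcdhb7 was the only member called, and it is 1 of 55, or 1.82%, beside 2.42% of all genes called in this comparison (1.54% of all genes lower in EE). The share of called members was thus no higher than the background. Of the read-length windows of Pcdhb7, 0.148% also occur in Pcdhb9, and 0.0199% of its read pairs were on the opposite strand.

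The Pcdhb7 difference was in the same direction within each class of mice but was called in only 1 of them. Between EE and SH controls the log2 difference was -0.07 ± 0.07 (adjusted p = 0.991 by edgeR), between EE and SH RES mice -0.36 ± 0.07 (adjusted p = 0.0268, beside 0.273% of all genes called and 0.164% called lower) and between EE and SH SUS mice -0.12 ± 0.07 (adjusted p = 0.727, beside 0.00547% of all genes called). The last 2 comparisons were added after the data had been seen. A call in RES mice alone does not show that the classes differ. Whether defeat acted differently in the 2 housings was tested, with a log2 value of -0.17 ± 0.08 for Pcdhb7 (adjusted p = 0.756 by edgeR). That test pools RES with SUS mice, so it cannot compare the housing differences of these 2 classes. In RES mice the groups overlapped narrowly, since the highest EE RES mouse was at 13.2 and the lowest SH RES mouse at 13.1 CPM.

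Leaving out the 12 mice with choroid plexus or thalamus markers kept Pcdhb7 as the only called member, with a log2 difference of -0.19 ± 0.05 and an adjusted p of 0.0419, beside 0.616% of all genes. The call held without each of the 54 mice in turn, with an adjusted p of at most 0.0148.

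**Figure D3:**
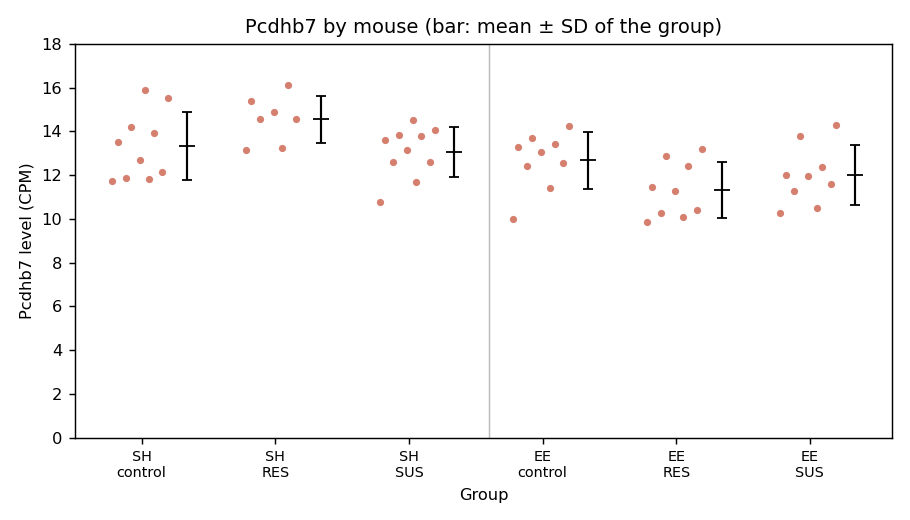
Pcdhb7 level in CPM in each of the 54 mice by group, with the mean and SD of each group as a bar beside its points. EE RES mice, from 9.88 to 13.2 CPM, sit lowest and SH RES mice, from 13.1 to 16.1 CPM, highest.

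No other member was called for housing. Without adjustment, and with Pcdhb7 included, 2 members were higher (8.93% of all genes were) and 7 lower (8.7% of all genes) at p below 0.05, which is 9 of 55 (16.4%) beside 17.6% of all genes, a share near the background. The 38 members with a lower estimate in EE comprised 10 of 13 alpha, 17 of 21 beta and 11 of 21 gamma genes, and the median log2 difference was -0.02 over members and 0.00 over all genes. Pcdhga2 stood at 8.69 ± 1.27 CPM in EE and 7.88 ± 1.33 CPM in SH mice (adjusted p = 0.148 by edgeR), and Pcdhga8 at 10.7 ± 1.23 and 11.4 ± 1.28 CPM (adjusted p = 0.149). Without the 12 mice with choroid plexus or thalamus markers, 8 members (14.5%) passed without adjustment in place of 9, beside 13.7% of all genes. Pcdhga2 and Pcdhga8 are gamma-A genes, and they had the smallest p after Pcdhb7, with estimates in opposite directions.

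Markers of other cell types were examined beside this result. Of 8 oligodendrocyte genes, 8 had a higher estimate in EE mice, 7 of them at unadjusted p below 0.05, and Mbp was among those called. Their summed level was 1614 ± 360 CPM in EE and 1355 ± 308 CPM in SH mice, with Mbp as the most abundant gene. Of 8 endothelial genes, 8 had a higher estimate in EE mice and 1, Flt1, was called, with a sum of 211 ± 23.5 against 195 ± 15.9 CPM. Of 8 dentate granule genes, 7 had a lower estimate and 1, Dsp, was called, with a sum of 1091 ± 180 against 1179 ± 143 CPM. None of the markers on these 3 lists was at 0 in any housing. The part of these shifts in the Pcdhb7 difference was not tested.

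In unstressed mice alone no member was called between EE and SH controls, beside 1 of 18283 genes (0.00547%). Without adjustment 2 members were higher (2.67% of all genes) and 1 lower (2.34%), beside 5.02% of all genes in either direction, and Pcdhac2, the most abundant alpha gene, had the smallest p. Its level ran from 28.4 over a median of 33.3 to 35.8 CPM in 9 EE controls and from 31.6 over 36.8 to 40.7 CPM in 10 SH controls, and the groups overlapped. The log2 difference was -0.16 ± 0.05 with an adjusted p of 0.816 by edgeR. Pcdhb10 and Pcdhgb7 were the others, at 8.39 ± 0.579 against 7.43 ± 0.642 CPM and at 6.81 ± 0.529 against 6.07 ± 0.706 CPM. When the 12 mice with choroid plexus or thalamus markers were left out, 5 members (9.09%) passed without adjustment in place of 3, beside 4.52% of all genes.

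The comparison of defeated with control mice, pooled over housing (35 against 19 mice), asks whether CSDS itself alters the members. No member was called, beside 0.0438% of all genes, and at unadjusted p below 0.05 3 members were higher (2.42% of all genes) and 2 lower (2.39%), which is 9.09% beside 4.81% of all genes. Pcdhb4, an early gene of the beta cluster, had the smallest p. Its level ran from 3.31 over a median of 5.29 to 7.16 CPM in defeated mice and from 4.43 over 6.04 to 8.05 CPM in controls. The ranges overlapped widely, and the log2 difference was -0.21 ± 0.07 with an adjusted p of 0.685 by edgeR, with means of 5.26 ± 0.921 and 6.12 ± 1.02 CPM. Pcdhga1 stood at 7.16 ± 0.962 in defeated and 7.80 ± 1.004 CPM in control mice, and Pcdha6 at 4.62 ± 0.613 and 4.20 ± 0.608 CPM, with adjusted p of 0.987 for both. When the 12 mice with choroid plexus or thalamus markers were left out, 4 members (7.27%) passed without adjustment in place of 5, beside 4.47% of all genes.

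Red cell genes rose with defeat. All 5 genes of that list were called higher in defeated than in control mice, and they account for 5 of the 8 genes called in this comparison. Their summed level, in which Hbb-bs was the most abundant, was 79.7 ± 20.4 CPM in SH control, 167 ± 53.9 CPM in SH RES and 222 ± 106 CPM in SH SUS mice. It was 85.8 ± 16.5 CPM in EE control, 145 ± 47.7 CPM in EE RES and 180 ± 111 CPM in EE SUS mice. In SH SUS against SH control mice all 5 were called as well. In each of the other comparisons of a defeated group with its controls all 5 were higher at unadjusted p below 0.05 and 0 were called. The part of red cell RNA in the members' values was not tested.

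By phenotype, Pcdhb4 had its lowest medians in the SUS mice of both housings, and no difference passed the adjusted test. SH SUS mice ran from 3.31 over a median of 4.68 to 6.22 CPM, SH controls from 4.43 over 6.22 to 8.05 CPM and SH RES mice from 4.50 over 6.16 to 7.16 CPM. EE SUS mice ran from 3.94 over 4.97 to 5.74 CPM, EE RES mice from 3.94 over 5.45 to 6.72 CPM and EE controls from 4.81 over 5.83 to 7.36 CPM. All these ranges overlapped. The log2 difference was -0.36 ± 0.10 for SH SUS against SH control mice (adjusted p = 0.887), -0.35 ± 0.11 for SH SUS against SH RES mice (adjusted p = 0.934) and -0.30 ± 0.11 for EE SUS against EE control mice (adjusted p = 0.478, all by edgeR). The first 2 comparisons share the SH SUS mice.

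**Figure D4:**
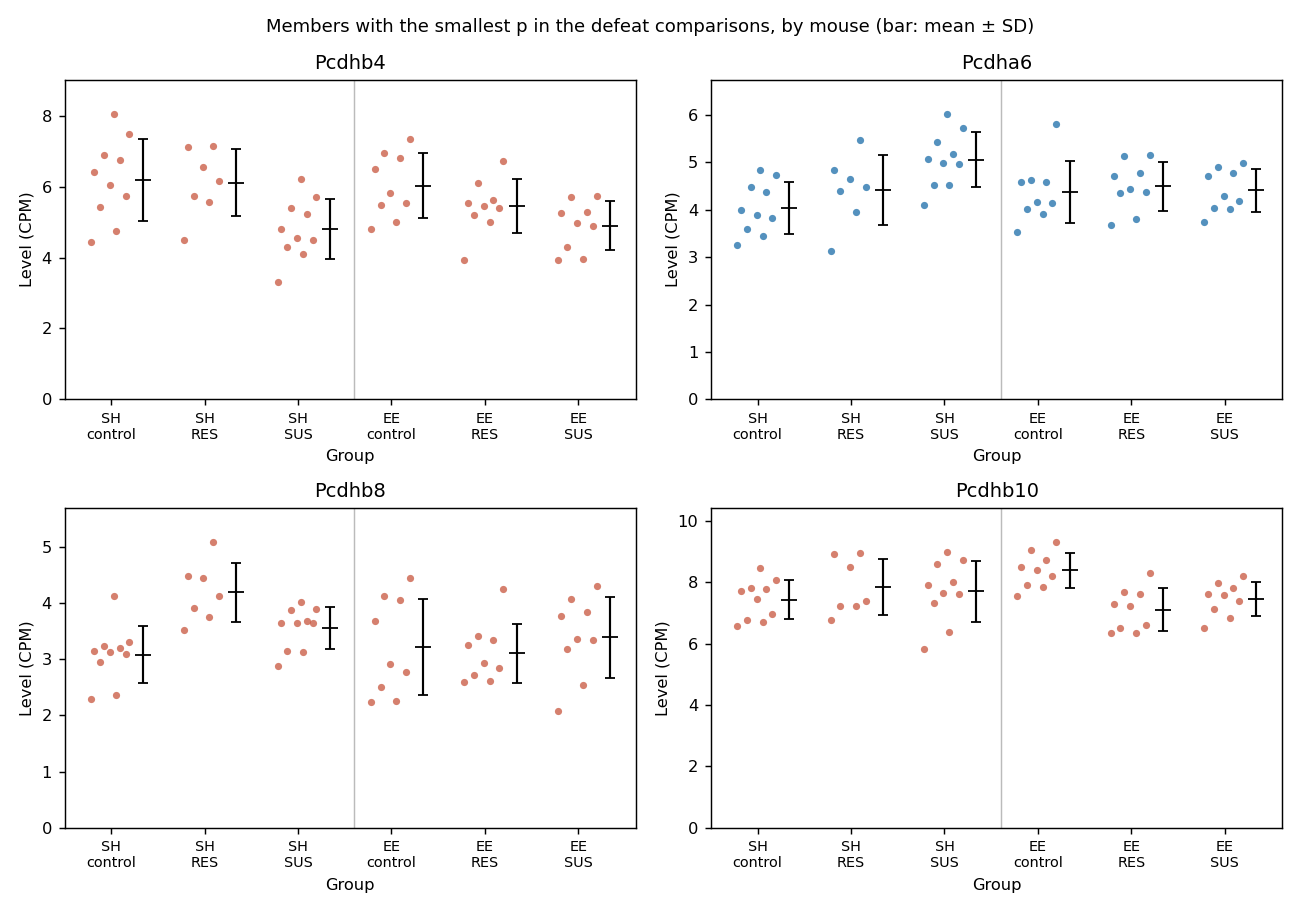
Levels in CPM of Pcdhb4, Pcdha6, Pcdhb8 and Pcdhb10 in each of the 54 mice by group, with the mean and SD of each group as a bar beside its points. Pcdhb4 is lowest in the SUS groups, Pcdha6 highest in SH SUS, Pcdhb8 highest in SH RES and Pcdhb10 highest in EE control mice, and the groups of each gene overlap.

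In SH mice no member was called for SUS against control mice, beside 0.0328% of all genes, nor for RES against control mice, beside 0.0%. Pcdha6 had the smallest p for SUS mice. It ran from 4.10 over a median of 5.04 to 6.02 CPM in 10 SH SUS and from 3.25 over 3.94 to 4.85 CPM in 10 SH control mice, with a log2 difference of 0.33 ± 0.08 and an adjusted p of 0.494 by edgeR. The SH SUS median lay above the highest control mouse, but the ranges overlapped, and Pcdha6 is among the members whose first exon lies under an opposite-strand gene (Gm37753). Of the 55 members 2 were higher (1.35% of all genes) and 3 lower (1.43%) at unadjusted p below 0.05, which is 9.09% beside 2.78% of all genes. Without the 12 mice with choroid plexus or thalamus markers, 4 members (7.27%) passed, beside 2.75% of all genes.

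For SH RES against SH control mice, 5 members were higher (1.73% of all genes) and 1 lower (1.78%) at unadjusted p below 0.05, which is 10.9% beside 3.51% of all genes. The median log2 difference was 0.07 over the members and 0.00 over all genes, and 42 of 55 members had a higher estimate. Pcdhb8, a beta gene next to Pcdhb7, had the smallest p. It ran from 3.52 over a median of 4.13 to 5.09 CPM in 7 SH RES mice and from 2.30 over 3.14 to 4.13 CPM in 10 SH controls, so the groups overlapped between 3.52 and 4.13 CPM. The log2 difference was 0.44 ± 0.13, a fold of 1.354, with an adjusted p of 0.9999 by edgeR. All 6 tested choroid plexus genes had lower estimates in SH RES mice (5 at unadjusted p below 0.05), with a summed level of 21.3 ± 2.31 against 121 ± 303 CPM in SH controls, 1 of which stood at 983 CPM. Kl was at 15.5 CPM or more in every mouse, whereas Ttr reached 0, so the SH RES sum was mostly Kl. With the 12 mice with choroid plexus or thalamus markers left out, 4 members (7.27%) passed without adjustment in place of 6, beside 2.78% of all genes.

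SH SUS and SH RES mice were compared directly, and no member was called, beside 0.0% of all genes. At unadjusted p below 0.05, 3 members were higher (2.48% of all genes) and 5 lower (2.4%) in SUS mice, which is 14.5% beside 4.88% of all genes. The beta members had a median log2 difference of -0.10, with 19 of 21 estimates below 0, and the median was -0.07 for alpha members, 0.00 for gamma members and 0.00 over all genes. The dentate granule genes summed to 1126 ± 174 CPM in SH SUS and 1239 ± 58.7 CPM in SH RES mice, the immature granule genes to 203 ± 20.8 and 245 ± 31.2 CPM and the choroid plexus genes to 72.5 ± 113 and 21.3 ± 2.31 CPM. Calb2 weighs most in the immature granule sum, at 131 ± 30.6 CPM over all mice, and Sox11 followed at 36.2 ± 4.94 CPM. Without the 12 mice with choroid plexus or thalamus markers, 5 members (9.09%) in place of 8 passed without adjustment, beside 4.03% of all genes. The part of these markers was not tested. Besides Pcdhb4, the lower members were Pcdhb7, Pcdhb13, Pcdhb17 and Pcdhga6, and the higher ones Pcdha2, Pcdha6 and Pcdhga2.

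In EE mice no member was called for SUS or for RES against EE control mice, beside 0.0% of all genes in each. For EE RES mice, 7 members were lower (4.0% of all genes) and 0 higher (3.91%) at unadjusted p below 0.05, which is 12.7% beside 7.91% of all genes, and 42 of 55 estimates were below 0, with a median log2 difference of -0.08 beside 0.00 over all genes. Pcdhb10 had the smallest p, from 6.34 over a median of 7.21 to 8.30 CPM in 9 EE RES and from 7.56 over 8.38 to 9.30 CPM in 9 EE control mice. The groups overlapped, with a log2 difference of -0.24 ± 0.07 and an adjusted p of 0.539 by edgeR. For EE SUS mice 3 members were lower (3.37% of all genes) and 0 higher (4.53%) at unadjusted p below 0.05, which is 5.45% beside 7.9% of all genes, namely Pcdhb4, Pcdhb10 and Pcdhga9. All 8 thalamus genes had higher estimates in both defeated EE groups, with 8 at unadjusted p below 0.05 in SUS and 3 in RES mice. In EE RES against EE control mice all 8 genes of the astrocyte list (5218 ± 363 against 5639 ± 335 CPM), of the dentate granule list (1035 ± 169 against 1171 ± 211 CPM) and of the immature granule list (204 ± 37.4 against 236 ± 43.4 CPM) had lower estimates, and none was called. As given above, Calb2 weighs most in the immature granule sum. Without the 12 mice with choroid plexus or thalamus markers, 8 members (14.5%) passed without adjustment for RES mice, beside 9.02% of all genes, and 4 (7.27%) for SUS mice, beside 4.29% of all genes. For SUS mice the count of members thus went only from 3 to 4, while the share of all genes fell from 7.9% to 4.29%. Of the 9 EE SUS mice, 5 were left out. The part of the markers was not tested.

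Between EE SUS and EE RES mice 0 members were called, beside 0.0% of all genes. With all mice kept, this was the design's comparison with the fewest members at unadjusted p below 0.05. There was 1 of 55 (1.82%), beside 3.52% of all genes (1.77% higher). That member was Pcdhb16, a beta gene of high level, at 22.5 ± 1.38 CPM in EE SUS and 20.4 ± 1.49 CPM in EE RES mice (SD, n = 9 each). Its log2 difference was 0.14 ± 0.06 with an adjusted p of 0.9997 by edgeR. With the 12 mice with choroid plexus or thalamus markers left out, 4 members (7.27%) passed without adjustment in place of 1, beside 4.14% of all genes. Over all mice the CA1 pyramidal cell markers summed to 170 ± 43.9 CPM in EE SUS and 242 ± 84.1 CPM in EE RES mice. The thalamus markers summed to 362 ± 177 and 256 ± 164 CPM. The part of these markers was not tested.

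Whether defeat acted differently in EE and SH was tested as the interaction of defeat and housing. No member was called, beside 0.0% of all genes. Without adjustment, 1 member passed with a positive (3.27% of all genes) and 8 with a negative value (3.2%), which is 16.4% beside 6.47% of all genes. The log2 values were below 0 for 12 of 13 alpha, 17 of 21 beta and 17 of 21 gamma members, with a median of -0.10 over members and 0.00 over all genes. A negative value means that the difference between defeated and control mice was lower in EE than in SH.

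The smallest p for the interaction was that of Pcdhb10, at -0.27 ± 0.08 on the log2 scale, followed by Pcdhga8 at -0.26 ± 0.09 and Pcdhac2 at 0.18 ± 0.07, each with an adjusted p of 0.756 by edgeR. Pcdhb10 was higher in EE than in SH control mice, at 8.39 ± 0.579 (n = 9) against 7.43 ± 0.642 CPM (n = 10), and its means in the 4 defeated groups lay between 7.10 and 7.85 CPM. Without the 12 mice with choroid plexus or thalamus markers, 4 members (7.27%) in place of 9 passed without adjustment, all with negative values, beside 4.28% of all genes in place of 6.47%. For the interaction, 8 of 8 tested thalamus genes and 6 of 6 tested choroid plexus genes had positive values, and none was called. Their part in the members' values was not tested.

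**Figure D5:**
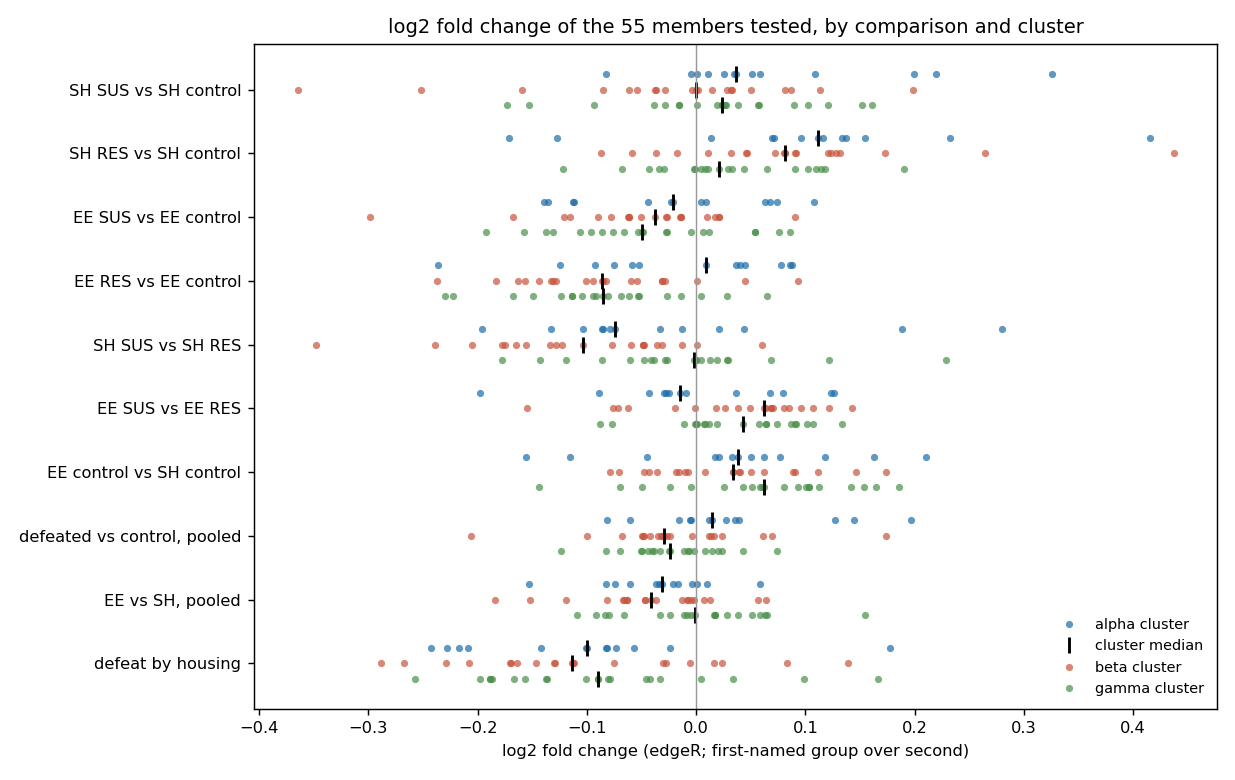
The log2 fold change of each of the 55 members tested in 10 comparisons, 1 point for a gene, with the median of each cluster as a black bar. Estimates lie between -0.36 and 0.44, and the medians of the 3 clusters are all near -0.10 for the interaction of defeat and housing.

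Over the 6 groups together, 0 members differed at an adjusted p below 0.05 by edgeR, beside 0.35% of all genes, and 9 members (16.4%) passed without adjustment, beside 11.1% of all genes. Pcdhb7 came closest, with an adjusted p of 0.0552, then Pcdhb4 with 0.131 and Pcdhb8 with 0.284. DESeq2 called 2 members in the same test, Pcdhb7 (adjusted p = 0.00830) and Pcdhb4 (adjusted p = 0.0423), beside 1.001% of all genes called by DESeq2. Of the 9 members, 6 belong to the beta cluster, which holds 21 of the 55 members tested, and this difference in share was not tested. When the 12 mice with choroid plexus or thalamus markers were left out, 9 members passed without adjustment, beside 7.996% of all genes.

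The C-type genes gave no call across the groups. None of the 5 was called in any comparison, and Pcdhac2 was the only one to pass without adjustment in any of the design's comparisons. Group means of Pcdhgc5, the most abundant, ran from 49.2 ± 7.87 CPM in EE RES to 54.8 ± 6.29 CPM in SH RES mice. Those of Pcdhgc3 ran from 33.2 ± 1.64 CPM in SH RES to 34.8 ± 4.94 CPM in EE control mice, those of Pcdhgc4 from 9.53 ± 1.27 CPM in EE RES to 10.1 ± 0.836 CPM in EE SUS mice and those of Pcdhac1 from 5.89 ± 1.17 CPM in EE RES to 6.37 ± 0.818 CPM in SH RES mice. The differences between these group means were smaller than the spread over mice.

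The genes that act around the clustered protocadherins were counted from lists. Of 24 genes for promoter choice and silencing, among them Ctcf, the cohesin genes Rad21, Smc1a and Smc3, Smchd1 and the DNA methyltransferases, none was called in any comparison, and for EE against SH 3 of 24 (12.5%) were lower and 0 higher at unadjusted p below 0.05, beside 8.7% and 8.93% of all genes. Wapl, which releases cohesin from DNA, had the smallest p of the list, at 137 ± 5.54 CPM in EE and 142 ± 7.32 CPM in SH mice (adjusted p = 0.116 by edgeR), and Smc3 followed at 117 ± 6.21 and 121 ± 5.48 CPM (adjusted p = 0.167). The median log2 difference of the list was -0.03, and 22 of 24 estimates were below 0.

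Of 19 genes for cytoplasmic partners, such as the kinases Ptk2, Ptk2b and Fyn and the WAVE complex, 1 was called, in EE against SH mice. Cyfip1, a subunit of the WAVE complex that drives actin branching, fell by 0.06 ± 0.02 on the log2 scale (adjusted p = 0.0162), from 221 ± 5.85 to 211 ± 8.76 CPM. Nckap1 of the same complex stood at 811 ± 27.8 CPM in EE and 871 ± 44.6 CPM in SH control mice (adjusted p = 0.769).

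The nonclustered protocadherins, which sit elsewhere in the genome, gave 1 called gene of 12. Pcdh20 (chr14:88464743-88471396) fell in EE mice by 0.13 ± 0.03 on the log2 scale, from 445 ± 32.0 to 407 ± 39.7 CPM, with an adjusted p of 0.0209. Pcdh19, an adhesion partner of N-cadherin, stood at 103 ± 10.1 CPM in EE SUS and 116 ± 12.6 CPM in EE control mice (adjusted p = 0.310). Of 17 other cadherin-type adhesion genes, 2 fell in EE mice. Cdh8 changed by -0.13 ± 0.02, from 143 ± 9.46 to 131 ± 7.81 CPM (adjusted p = 0.00238), and Fat4 by -0.24 ± 0.06, from 222 ± 28.4 to 189 ± 39.6 CPM (adjusted p = 0.0211, all by edgeR). Over the 6 groups Cdh8 was called as well (adjusted p = 0.0446). The counts of called genes on these lists stand beside 2.42% of all genes called for EE against SH, and 281 of those 442 genes were lower in EE.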

How the data were processed

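The files deposited by the authors hold unnormalized gene counts (read pairs), in the layout of STAR gene counts, with unstranded, forward-strand and reverse-strand columns. Their methods state that low-quality reads were discarded, that the rest were aligned to GRCm38 with STAR using Ensembl annotation (release not given in the sources used here), and that genes were quantified with featureCounts. Reverse-strand counts were used, rows that name no gene were left out, and the 2 runs of EE control mouse 9 (Pearson's r = 0.998) were summed. Multimapping read pairs, 8.70% to 12.1% of a library, were counted for no gene. Of 45318 identifiers, 44671 matched the GENCODE annotation of GRCm38 used for names, exons and positions, and the gene with the identifier ENSMUSG00000007440 was called Pcdha10 after RefSeq.

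Counts were filtered with filterByExpr, scaled by TMM and fitted over the 6 groups with the quasi-likelihood test of edgeR 4.0.16 in R 4.3.3, with Benjamini-Hochberg adjustment over 18283 genes at a threshold of 0.05. Levels of all members, also those not tested, are CPM over the tested genes' total after TMM, and per kb values divide by unshared exon length. On simulated counts for SH SUS against SH control mice with log2 changes of 1, edgeR recovered 92.9% of 196 changed genes, with 12 false calls among 18159 genes. All estimates of members were smaller than this change, and recovery at their size was not tested. That mice of a group are separate animals comes from the labels.

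Alternatives were DESeq2 1.42.0 and limma 3.58.1 (voom), including the study's criterion (unadjusted p below 0.05 with a fold above 1.3), size factors, other filters, unstranded counts, only the groups compared, the replicate number as a block, the first run alone and each mouse left out. Leaving out the 12 mice with high choroid plexus or thalamus markers and comparing housings within RES and SUS mice were chosen after seeing the data. Members, gene lists and tests were chosen with earlier results of these data known. Windows of read length were matched exactly to the annotated transcripts of genes that do not lie over the same first exon. Named members are those called in any comparison, the C-type genes, the highest and lowest of each cluster, and those with the smallest p in each comparison (3 in the pooled, interaction and 6-group tests). Of the partner lists the called genes and the 2 with the smallest p are named. Members named only in counts of 5 or fewer, Gm genes, Pcdha2, Pcdha3, Pcdha11, Pcdhb13, Pcdhb17, Pcdhb21, Pcdhb22, Pcdhga6, Pcdhga9, Pcdhga10, Pcdhga11, Pcdhgb2 and Pcdhgb7 were chosen after their values were seen. The result of 1 marker gene is not reported here. Python 3.11.15 with pandas 2.3.3, NumPy 2.4.6 and matplotlib 3.10.9 was used for summaries and plots.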

Additional observations from a re-analysis of the deposited data

Results flagged for a closer look

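For the 18 named members and the 3 cluster sums, the highest and the lowest mouse of each group were compared with the others by the Dixon ratio at 95%, which chance exceeds in about 1 of 20 groups. It was exceeded in 9 of 126 groups (7.14%), in members only and in no cluster sum. EE control mouse 2 was high for Pcdhgc3 (46.4 CPM, others up to 37.2) and for Pcdhga2 (11.7 CPM, others up to 9.15). SH control mouse 7 was low for Pcdhgc5 (41.9 CPM, others from 51.2) and for Pcdhgc4 (7.86 CPM, others from 9.32). SH SUS mouse 2 was high for Pcdhgc3 (38.6 CPM, others up to 34.2). SH RES mouse 7 was high for Pcdha1 (1.55 CPM, others up to 1.05) and SH RES mouse 1 low for Pcdhac2 (30.1 CPM, others from 33.0). EE control mouse 6 was high for Pcdha6 (5.82 CPM, others up to 4.63), and EE RES mouse 2 was high for Pcdhb8 (4.25 CPM, others up to 3.41). None of these is a value of Pcdhb7, and none of these mice is among the 12 with high choroid plexus or thalamus markers. No difference between groups in the effect of defeat passed the adjusted test for a member.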

How the results depend on the processing

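The call of Pcdhb7 in EE against SH mice held under the 8 alternatives that use an adjusted p, with log2 differences from -0.19 to -0.18 and adjusted p from 0.00163 to 0.0122, and without any single mouse (1 member called each time). By the study's criterion in limma, which asks for a fold above 1.3, 0 members passed for EE against SH (0.613% of all genes) and 2 for SH RES against SH control mice (1.214% of all genes), Pcdhb8 and Pcdha1. In EE against SH SUS mice alone 0 were called. Over the 6 groups, where this criterion has no fold to apply and was left out, DESeq2 called 2 members, and leaving out single mice gave 0 to 1, with 1 for 13 of the 54 mice. Apart from the SH RES count above, the number of called members was 0 in the other 9 comparisons under each alternative run and without any single mouse. Counts at unadjusted p were less stable, ranging for instance from 3 to 13 lower members for the interaction when 1 mouse was left out.

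The cluster shares changed with the scale. With unstranded counts the alpha, beta and gamma clusters took 15.9%, 41.9% and 42.2% of the summed level, and per kb of unshared exon 18.9%, 30.6% and 50.5%. Unstranded counting drops read pairs where genes of opposite strands overlap.

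Deviations of same-numbered mice correlated at a median of 0.0262 against -0.0040 for other numbers, with 32 of 126 and 175 of 1086 pairs over 0.1. Of the 54 mice, 9 were closest to a mouse of their own number. These values do not settle whether replicate numbers pair the mice, and the main fit left the numbers out. With the replicate block the count of called members stayed at 1 for EE against SH and at 0 elsewhere, and genes called for EE against SH went from 442 to 581. Members at unadjusted p below 0.05 went from 9 to 13 for the interaction. Precision was lowest for Pcdha4 and Pcdhb1, with 0 to 12 and 1 to 11 read pairs per mouse, the former over 494 unshared bases.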

Other observations

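Pcdhgb8, annotated as a polymorphic pseudogene and therefore outside the selection, stood at 2.74 ± 0.429 CPM (SD, n = 54), and Gm18150, a pseudogene that shares exon sequence with Pcdha11, at 0.823 ± 0.222 CPM. Among the genes on the opposite strand of members, Gm26672, which lies over 4 gamma genes, was the most abundant at 2.12 ± 0.364 CPM, followed by BC037039 over Pcdhgc3 at 0.605 ± 0.193 CPM. The 4 other genes that share constant exons (Gm37013, Gm37388, Gm38182 and Gm42416) had 0 reverse-strand read pairs in all mice. No opposite-strand gene is annotated over the single exon of Pcdhb7.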
